A study of Homo sapiens with 7 samples.

Results

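The enzymes that make asparagine (ASNS), arginine (ASS1 and ASL), proline (PYCR1 and ALDH18A1), cysteine (CTH and CBS), alanine (GPT2) and aspartate (GOT1) were examined together with PCK2, the mitochondrial phosphoenolpyruvate carboxykinase. They were chosen by function, with earlier results of these data known, and mapped by gene symbol to the Ensembl identifiers of the deposited counts. They are 10 of the 62238 genes counted, and all 10 were among the 24887 genes with enough reads to be tested.

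The study used MEG-01, a human megakaryoblastic leukemia cell line, to ask how the RNA-binding protein RBM15 acts on RNA. RNA-seq was performed on 3 libraries, which were 1 library without a knockdown tag (control), 1 from a stable line expressing the short hairpin RNA shRBM15#1 and 1 from a stable line expressing shRBM15#2. A separate RNA immunoprecipitation experiment (RIP-seq) gave 2 libraries labelled normal immunoglobulin and 2 labelled RBM15 antibody. All 7 samples were labelled as carrying lentiviral transgenes and as passage 5, and were grown in RPMI-1640 with fetal bovine serum and harvested in exponential phase. According to the methods, the knockdown cells were selected with puromycin. The labels do not say which vector the control cells carried, and each hairpin is represented by a single line.

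Most of these enzymes belong to the set of genes that cells raise when amino acids run short. In that response the kinase GCN2 senses uncharged tRNA, phosphorylation of eIF2α lowers general translation, and translation of the transcription factor ATF4 rises. ATF4, with C/EBP partners, binds C/EBP-ATF response elements near genes such as ASNS. Leukemic cells are known for differing supplies of these amino acids, since cells with little ASNS depend on asparagine from outside and cells with little ASS1 depend on arginine from outside.

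Counts on exon bins, the smallest non-overlapping pieces of exons, summed to 53230029 in the control, 41629454 in shRBM15#1 and 52458857 in shRBM15#2. A read spanning several bins counts in each. A further 16048018, 19601039 and 16133813 counts were on lines that name no gene, for reasons not separated here. They are 23.16%, 32.01% and 23.52% of all counts, which is not a share of reads. RBM15 itself had 3970 counts in the control, 1957 in shRBM15#1 and 2121 in shRBM15#2, and after scaling for library size the lines held 54.5% and 50.7% of the control level (edgeR adjusted p = 0.091). Of the megakaryocyte and erythroid markers, ITGA2B, GATA1 and TAL1 were abundant. ITGA2B stood at 51.8% and 66.0% of control in shRBM15#1 and shRBM15#2 (adjusted p = 0.15), TAL1 at 147% and 169% (adjusted p = 0.19) and GATA1 at 89.5% and 92.1% (adjusted p = 0.78), and what part these shifts have in the values of the enzymes was not tested. GP1BA was low at 151 to 235 counts, and the late markers GP9 and PF4 had at most 5 counts in any library. Of the markers of other lineages, EPCAM had 2441 to 3704 counts, while CD3E and ALB had 8 to 82 counts with their highest values in shRBM15#1.

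After RBM15 knockdown, RNA of most of these enzymes fell. The fall was steepest for ASS1, PCK2, CTH and ASNS, and it was in the same direction in both lines. ASL and ALDH18A1, which act in the same pathways as ASS1 and PYCR1, showed no detectable change. The test was the edgeR quasi-likelihood test on counts summed over the bins of each gene, with p-values adjusted by Benjamini-Hochberg over all 24887 genes. By the study's limit, an adjusted p under 0.01, 4 of the 10 genes were lower and 0 were higher, against 0.277% of all genes tested that were lower at this limit. At an adjusted p under 0.05, 6 were lower and 0 higher, against 1.2% of all genes. At an unadjusted p under 0.05, 8 of the 10 were lower, against 9.17% of all genes. Because the 10 genes were chosen with earlier results of these data known, these shares are a description and not a test of enrichment. The median log2 fold change of the 10 genes was -1.40, beside 0.017 over all genes and -0.143 over the 10211 genes that had 1000 or more counts over the 3 libraries, as each of the 10 did. Their summed level in CPM, the count of a gene scaled to a common library size, was 2211 in the control, 980.1 in shRBM15#1 and 937.1 in shRBM15#2.

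The 0.01 call depends on the processing. When testing was limited to genes with 300 or more counts, 0 of the 10 genes and 0 of all genes passed 0.01. At 0.05, 5 of the 10 passed, against 238 of all 12994 tested in either direction. When each gene was represented by its single bin with the highest count, 0 of the 10 and 0 of all genes passed 0.01. At 0.05, 4 of the 10 passed, against 119 of all 19286 tested in either direction. In either case 8 of the 10 passed an unadjusted p under 0.05. The share of all genes passing it in these settings is not given here, so this count has no background to be read against. The only spread available was that between the 2 lines, because the control is a single library. A property of this control culture cannot be told apart from an effect of the knockdown. In bulk RNA, fewer cells of a type cannot be told apart from less RNA per cell.

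**Figure D1:**
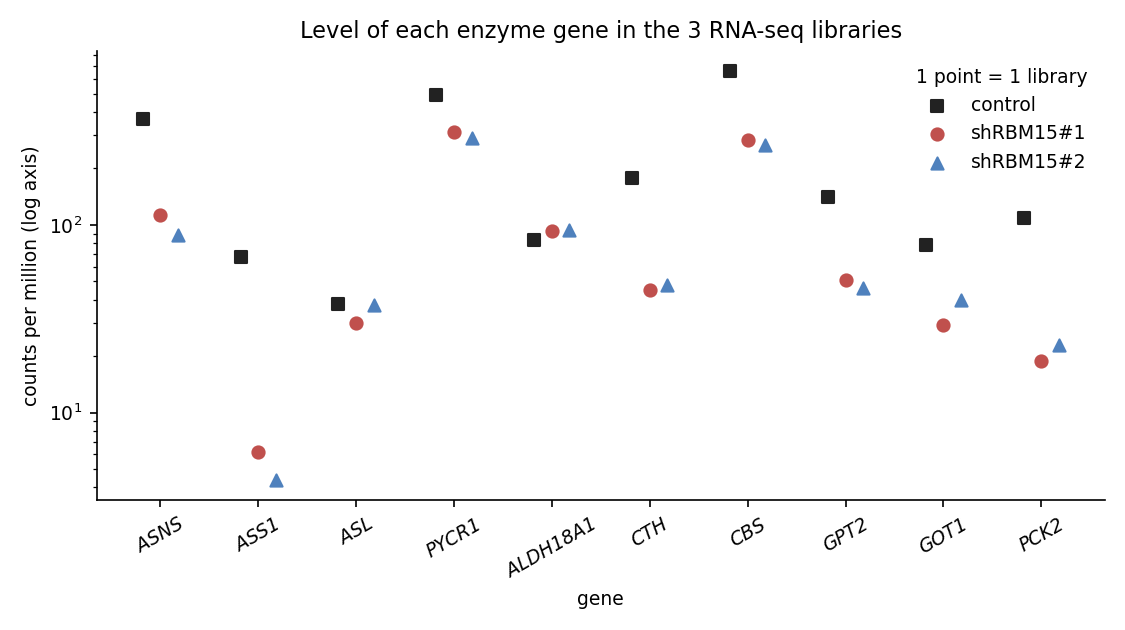
Level of each of the 10 enzyme genes in CPM (log axis), with 1 point for each of the 3 libraries. For 8 genes the control lies clearly above both knockdown lines, whereas for ASL shRBM15#2 lies at the control level (37.64 against 37.97 CPM) and for ALDH18A1 both lines lie slightly above it.

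The short reference sequences below show where the core of the C/EBP-ATF response element, searched as TGATGNAA on both strands, was found in promoters of these genes. The promoter table (RefSeq, GRCh38.p14, from 250 bases before to 50 bases after each annotated start) held 12 windows for 8 of the 10 genes, and none for PYCR1 and GPT2. The letters were present in 2 of the 12 windows, compared with 3.62% of all 35116 promoter windows. Each sequence is read along the strand of its gene, and capitals mark the motif.
ASNS promoter, chr7:97872458-97872487, minus strand: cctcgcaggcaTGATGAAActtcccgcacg
GOT1 promoter, chr10:99430804-99430833, minus strand: aattgcattggTTGCATCAttctcggcagc
In ASNS the motif begins 68 bases before the start and reads in the direction of the gene. In GOT1 it begins 198 bases before the start and reads on the opposite strand. A match of letters is a description of the reference sequence and shows no binding in these cells, and a window without a match says only that these letters are not in it.

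ASNS, which transfers the amide of glutamine to aspartate to give asparagine, fell in both lines. The gene (ENSG00000070669, GRCh37 chr7:97481430-97501854, minus strand) had 18072 counts in the control, 5049 in shRBM15#1 and 4636 in shRBM15#2, which is 365.2, 112.8 and 88.85 CPM. The knockdown lines thus held 30.9% and 24.3% of the control level. The log2 fold change was -1.86 ± 0.23 (SE; 95% interval -2.38 to -1.33, edgeR adjusted p = 0.0085). Both lines lay far below the control and close to each other. Of the enzymes around it, GLUL, the glutamine synthetase that supplies its amide donor, was the most abundant of all the enzymes examined, with 2914 CPM in the control, 694.8 in shRBM15#1 and 1285 in shRBM15#2. The log2 fold change of GLUL was -1.56 ± 0.32, and its edgeR adjusted p of 0.056 missed both limits. Its lines, at 23.8% and 44.1% of control, lay farther apart than those of ASNS. ASRGL1, which hydrolyses asparagine, stood at 77.7% and 77.6% of the control in the knockdown lines (adjusted p = 0.60). The 5 ASNS pseudogenes in the count files together had 285 counts in the control, 123 in shRBM15#1 and 65 in shRBM15#2. Reads shared between ASNS and these copies would be uncertain in their origin.

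ASS1, argininosuccinate synthetase, joins citrulline to aspartate and is the rate-limiting step of arginine synthesis from citrulline. It showed the largest change of the 10 genes and ranked 12th from the lowest log2 fold change among the 24887 genes. ASS1 (ENSG00000130707, chr9:133320316-133376661, plus strand) had 3335 counts in the control, 276 in shRBM15#1 and 229 in shRBM15#2, which is 67.4, 6.165 and 4.389 CPM. Less than 10% of the control level remained in either line, 9.15% and 6.51%. The log2 fold change was -3.68 ± 0.29 (95% interval -4.33 to -3.02, edgeR adjusted p = 0.0018). Of the 14 ASS1 pseudogenes in the count files, ASS1P1 had the most reads, with 88, 67 and 43 counts, and all 14 together had 266, 178 and 116 counts. Reads shared between ASS1 and these copies would be uncertain in their origin, and in the knockdown lines the pseudogene total is not small beside the 276 and 229 counts of ASS1 itself.

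ASL, argininosuccinate lyase, takes the product of ASS1 and releases arginine and fumarate. The gene (ENSG00000126522, chr7:65540785-65558545, plus strand) had 1879 counts in the control, 1348 in shRBM15#1 and 1964 in shRBM15#2. After scaling, shRBM15#1 stood at 79.3% and shRBM15#2 at 99.1% of the control. The log2 fold change was -0.16 ± 0.26 with a 95% interval of -0.76 to 0.43 (edgeR adjusted p = 0.78), so a fall as deep as that of ASS1 lies outside the interval while a modest change in either direction does not. When the bin with the highest count stood for the gene, the sign of this small difference turned (0.06). Per length of exon, ASS1 stood at 1.54 times ASL in the control, 0.177 times in shRBM15#1 and 0.101 times in shRBM15#2. By this measure the order of the 2 consecutive enzymes was inverted in both lines. A read counts in every bin it touches, so levels per length between genes depend partly on how finely each gene is cut into bins. Among the other genes of arginine metabolism, the mitochondrial arginase ARG2 had 49.15, 31.3 and 39.9 CPM and CPS1, which makes carbamoyl phosphate in the urea cycle, had 53.15, 41.93 and 43.09 CPM, neither passing a limit (adjusted p = 0.36 and 0.49). OTC, which makes the citrulline that ASS1 uses, had 5, 17 and 8 counts, and NAGS and NOS3 had at most 46 counts in any library.

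PYCR1 is the mitochondrial enzyme that completes proline synthesis by reducing pyrroline-5-carboxylate. Its counts per length of exon were the highest of the 10 genes in every library, a place that its bins partly set. Of its 39 bins some are a few bases long, such as bin 017 with 774 control counts on 3 bases. Longer bins could lie closer, as with 1621 control counts on 114 bases in PYCR1 bin 020 and 1739 on 135 in CBS bin 033. PYCR1 (ENSG00000183010, chr17:79890260-79900288, minus strand) had 24463 counts in the control, 14000 in shRBM15#1 and 15078 in shRBM15#2, which is 494.4, 312.7 and 289 CPM. The lines lay at 63.3% and 58.5% of the control, with a log2 fold change of -0.72 ± 0.22 (95% interval -1.21 to -0.22). Its unadjusted p was 0.0094, but the edgeR adjusted p was 0.15 and passed neither limit. ALDH18A1, the bifunctional synthase that makes the precursor of pyrroline-5-carboxylate from glutamate, was the only gene of the 10 whose value was above the control in both lines, at 112% and 113%. ALDH18A1 (ENSG00000059573, chr10:97365696-97416463, minus strand) had 82.63 CPM in the control, 92.79 in shRBM15#1 and 93.7 in shRBM15#2, and its log2 fold change was 0.17 ± 0.22 (95% interval -0.33 to 0.68, adjusted p = 0.72).

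The cytosolic paralog of PYCR1 showed no such fall. PYCR3 had 653 counts in the control, 1230 in shRBM15#1 and 1573 in shRBM15#2, which is 208% and 228% of the control after scaling. Its log2 fold change was 1.13 ± 0.28 (95% interval 0.49 to 1.76), with an edgeR adjusted p of 0.095 and a DESeq2 adjusted p of 0.025. Per length, PYCR1 exceeded PYCR3 49.2 times in the control, 14.9 times in shRBM15#1 and 12.6 times in shRBM15#2. The size of these ratios depends partly on how the 2 genes are cut into bins. OAT, which links ornithine to pyrroline-5-carboxylate, had 181, 177.9 and 180.9 CPM and was thus level across the 3 libraries.

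CBS and CTH carry out the consecutive steps of transsulfuration, in which homocysteine is converted through cystathionine to cysteine. CBS (ENSG00000160200, chr21:44473301-44497053, minus strand) had 32618 counts in the control, 12615 in shRBM15#1 and 13920 in shRBM15#2, which is 659.2, 281.8 and 266.8 CPM. Its log2 fold change was -1.26 ± 0.21 (95% interval -1.75 to -0.78, edgeR adjusted p = 0.026), which passed 0.05 and not 0.01. CTH (ENSG00000116761, chr1:70876901-70905534, plus strand) had 8764 counts in the control, 2021 in shRBM15#1 and 2494 in shRBM15#2, which is 177.1, 45.14 and 47.8 CPM. For CTH the log2 fold change was -1.93 ± 0.22 (95% interval -2.42 to -1.44, edgeR adjusted p = 0.0055). Both genes fell to a nearly equal level in the 2 lines, CBS to 42.7% and 40.5% and CTH to 25.5% and 27.0% of control. The level of CTH per length relative to CBS went from 0.761 in the control to 0.453 and 0.507, a difference between the genes that was not tested.

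Enzymes before and after transsulfuration moved less. MAT2A, which makes S-adenosylmethionine, had 415.5 CPM in the control, 289.1 in shRBM15#1 and 301.9 in shRBM15#2 (log2 fold change -0.49 ± 0.22, adjusted p = 0.27). AHCY, which yields the homocysteine that CBS uses, had 199.9, 226 and 173.1 CPM, with the control between the lines. GCLC and GCLM, the subunits of the ligase that commits cysteine to glutathione, had log2 fold changes of -0.26 ± 0.22 and 0.44 ± 0.29 (adjusted p = 0.58 and 0.45).

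GPT2 and GOT1 move amino groups from glutamate, GPT2 to pyruvate in mitochondria to give alanine and GOT1 to oxaloacetate in the cytosol to give aspartate. GPT2 (ENSG00000166123, chr16:46918290-46965209, plus strand) had 6981 counts in the control, 2269 in shRBM15#1 and 2406 in shRBM15#2, which is 141.1, 50.68 and 46.11 CPM. Its log2 fold change was -1.54 ± 0.22 (95% interval -2.04 to -1.05, edgeR adjusted p = 0.014). GPT, the cytosolic paralog, was close to absent, with 60, 57 and 42 counts, so nearly all alanine aminotransferase RNA in these libraries came from GPT2. GOT1 (ENSG00000120053, chr10:101156627-101190381, minus strand) had 3849 counts in the control, 1305 in shRBM15#1 and 2075 in shRBM15#2, which is 77.78, 29.15 and 39.77 CPM. The lines differed more for GOT1 than for GPT2, at 37.5% and 51.1% of control, and its log2 fold change of -1.17 ± 0.26 (95% interval -1.76 to -0.58) had an edgeR adjusted p of 0.067. GOT2, the mitochondrial aspartate aminotransferase, had 95.47 CPM in the control, 111.6 in shRBM15#1 and 108.4 in shRBM15#2 (log2 fold change 0.20 ± 0.22, adjusted p = 0.67). Per length, GOT1 stood at 1.16 times GOT2 in the control and at 0.371 and 0.522 times in the lines. By this measure, which depends partly on the bins, the cytosolic form went from about level with the mitochondrial form to below it.

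PCK2 turns mitochondrial oxaloacetate into phosphoenolpyruvate and is known to be raised with the amino acid synthesis genes under amino acid stress. PCK2 (ENSG00000100889, chr14:24563262-24579807, plus strand) had 5370 counts in the control, 840 in shRBM15#1 and 1200 in shRBM15#2, which is 108.5, 18.76 and 23 CPM. The lines held 17.3% and 21.2% of the control level. The log2 fold change was -2.38 ± 0.24 (95% interval -2.92 to -1.83, edgeR adjusted p = 0.0038), and 92 of the 24887 genes had a lower one. PCK1, the cytosolic paralog, had 6, 66 and 11 counts, and most of these reads were in shRBM15#1, the library in which ALB and CD3E were also highest. PC, which makes mitochondrial oxaloacetate from pyruvate, had 32.56, 29.08 and 24.71 CPM (log2 fold change -0.28 ± 0.26, adjusted p = 0.61).

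**Figure D2:**
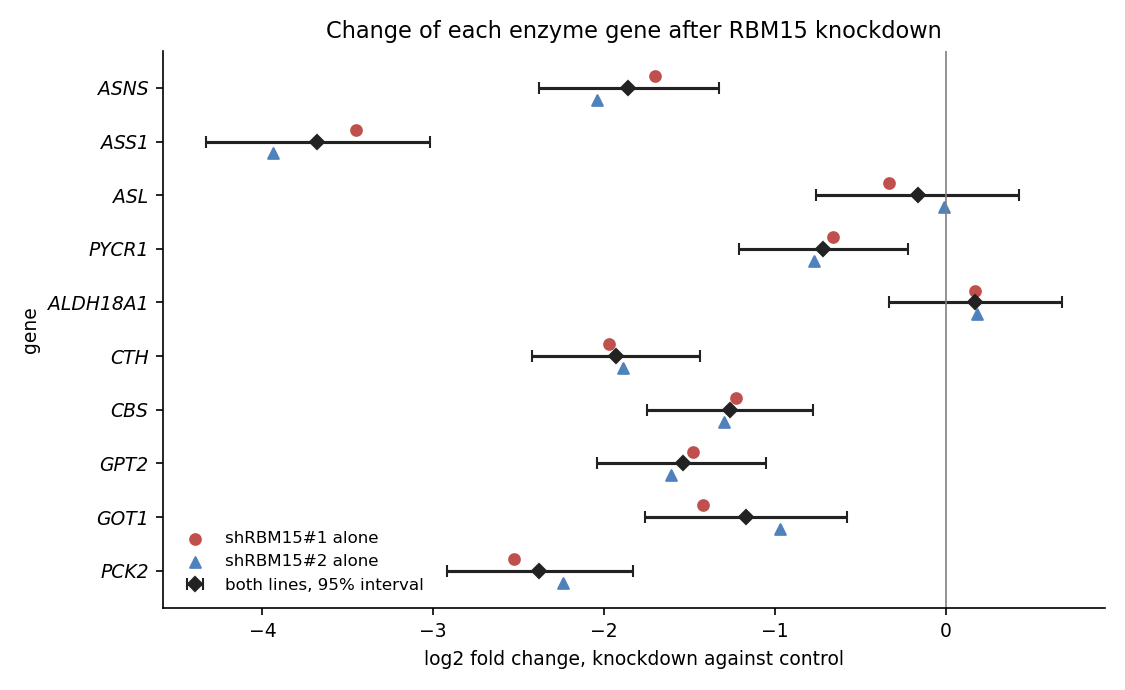
log2 fold change of each of the 10 enzyme genes, knockdown against control. Diamonds with bars give the edgeR estimate from both lines with its 95% interval, circles and triangles give each line alone against the control. The interval covers 0 for ASL and ALDH18A1 and lies below 0 for the other 8 genes, from -0.72 for PYCR1 to -3.68 for ASS1.

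The order of the levels per length of exon changed accordingly. This order depends partly on how each gene is cut into bins, since a read counts in every bin it touches. In the control it ran from PYCR1 (200 CPM per kilobase) through CBS (96.47), ASNS (81.98), CTH (73.37), GOT1 (29.37), PCK2 (25.91), GPT2 (22.2), ASS1 (22.1) and ALDH18A1 (22) to ASL (14.38). GPT2, ASS1 and ALDH18A1 were practically equal there, and with a single control library no spread is available to separate neighbours in the order. In shRBM15#1 and shRBM15#2, PYCR1 and CBS kept the first places, at 126.5 and 116.9 and at 41.24 and 39.04 CPM per kilobase. ALDH18A1 moved from the ninth place to the fourth in shRBM15#1 and the third in shRBM15#2. PCK2 and ASS1 were the lowest genes in both lines, with 4.479 and 5.49 CPM per kilobase for PCK2 and 2.021 and 1.439 for ASS1.

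A list of 32 further enzymes of the same pathways was read from the same fit. At an adjusted p under 0.01, 0 of the 32 passed in either direction in edgeR, and 6 had an unadjusted p under 0.05, of which 5 were lower and 1 was higher, a share of the 32 close to the 18.8% of all genes that passed this limit in either direction. At an adjusted p under 0.05, where 432 of all 24887 genes passed in either direction, 1 of the 32 passed. That gene was BCAT1, the cytosolic branched-chain aminotransferase. BCAT1 had 17140 counts in the control, 6113 in shRBM15#1 and 8000 in shRBM15#2, with a log2 fold change of -1.26 ± 0.22 (adjusted p = 0.028). Its mitochondrial paralog BCAT2 stood at 55.2% and 55.0% of control (log2 fold change -0.86 ± 0.22, adjusted p = 0.10), and GLUD1, which interconverts glutamate and 2-oxoglutarate, at 57.2% and 68.3% (adjusted p = 0.18).

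The median log2 fold change of the 32 genes was -0.18, and -0.28 over the 19 of them with 1000 or more counts. It was lowest for the 5 genes of alanine, aspartate and glutamate metabolism (-0.67), of which 3 were lower in both lines. For the 6 genes of arginine metabolism and the urea cycle it was 0.03, and for the 5 of proline metabolism 0.01. Positive values in the arginine group came only from OTC, NAGS and NOS3, with at most 46 counts in any library. CPS1, ARG2 and ARG1 had -0.32, -0.46 and -0.67 (edgeR adjusted p of 0.36 or higher). The proline median was that of ALDH4A1, with 146, 136 and 151 counts, and the more abundant OAT had -0.01. The 9 genes of cysteine and methionine metabolism had a median of -0.26, with 5 lower and 2 higher in both lines. With DESeq2, GLUL and BCAT1 also passed 0.01 (adjusted p = 0.0027 and 0.0025), where 525 of all 24887 genes passed in either direction.

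**Figure D3:**
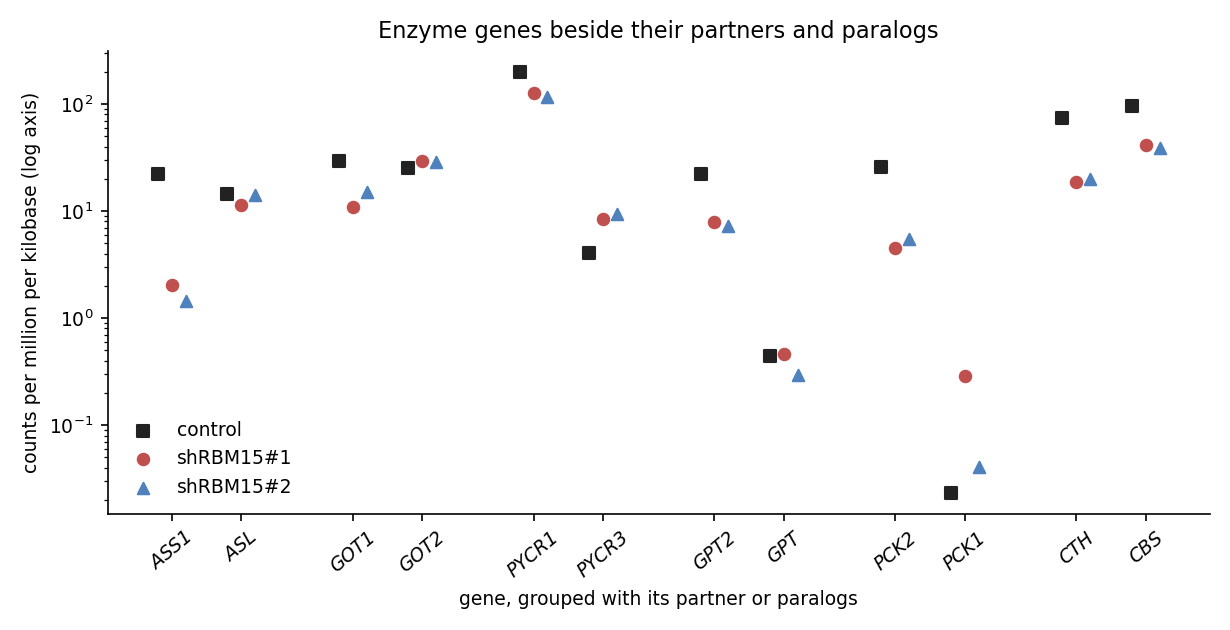
Level of 8 of the 10 enzyme genes beside partners and paralogs, in CPM per kilobase of summed exon bins (log axis), with 1 point for each library. ASS1, GOT1, PYCR1, GPT2, PCK2, CTH and CBS lie lower in both knockdown lines, ASL and GOT2 stay near their control level, and PYCR3 lies at 208% and 228% of control.

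Exon bins were then examined, since RBM15 was studied as a regulator of splicing. The 10 genes had 338 bins, of which 279 had at least 30 counts over the 3 libraries and were tested for a change of use relative to the other bins of the gene. In the 6 genes that were lower at an adjusted p under 0.05, 181 of the 182 tested bins were below the control in both lines. The exception was a bin at the 5′ end of ASNS, and bins with fewer than 30 counts, such as the first 9 of PCK2, were not tested. The 6 genes were chosen for being lower, so this count of bins is not separate support. In such genes a weak bin reaches 30 counts mainly through the control, as ASS1 bin 002 did with 46, 3 and 3 counts. Some weak bins nearer to the control were left out, such as PCK2 bin 016 with 8, 8 and 5 counts. In coding bins the log2 ratio to the control, given per line, ranged from -2.18 to -1.48 for ASNS, from -4.98 to -2.77 for ASS1, from -2.12 to -1.75 for CTH, from -1.54 to -1.04 for CBS, from -2.24 to -1.12 for GPT2 and from -2.97 to -1.93 for PCK2. The range was narrowest for CTH, whose 12 coding bins moved nearly as a unit. For ALDH18A1, 18 of 23 tested bins were above the control in both lines, and for ASL 11 of 24 were below and 4 above it in both lines.

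**Figure D4:**
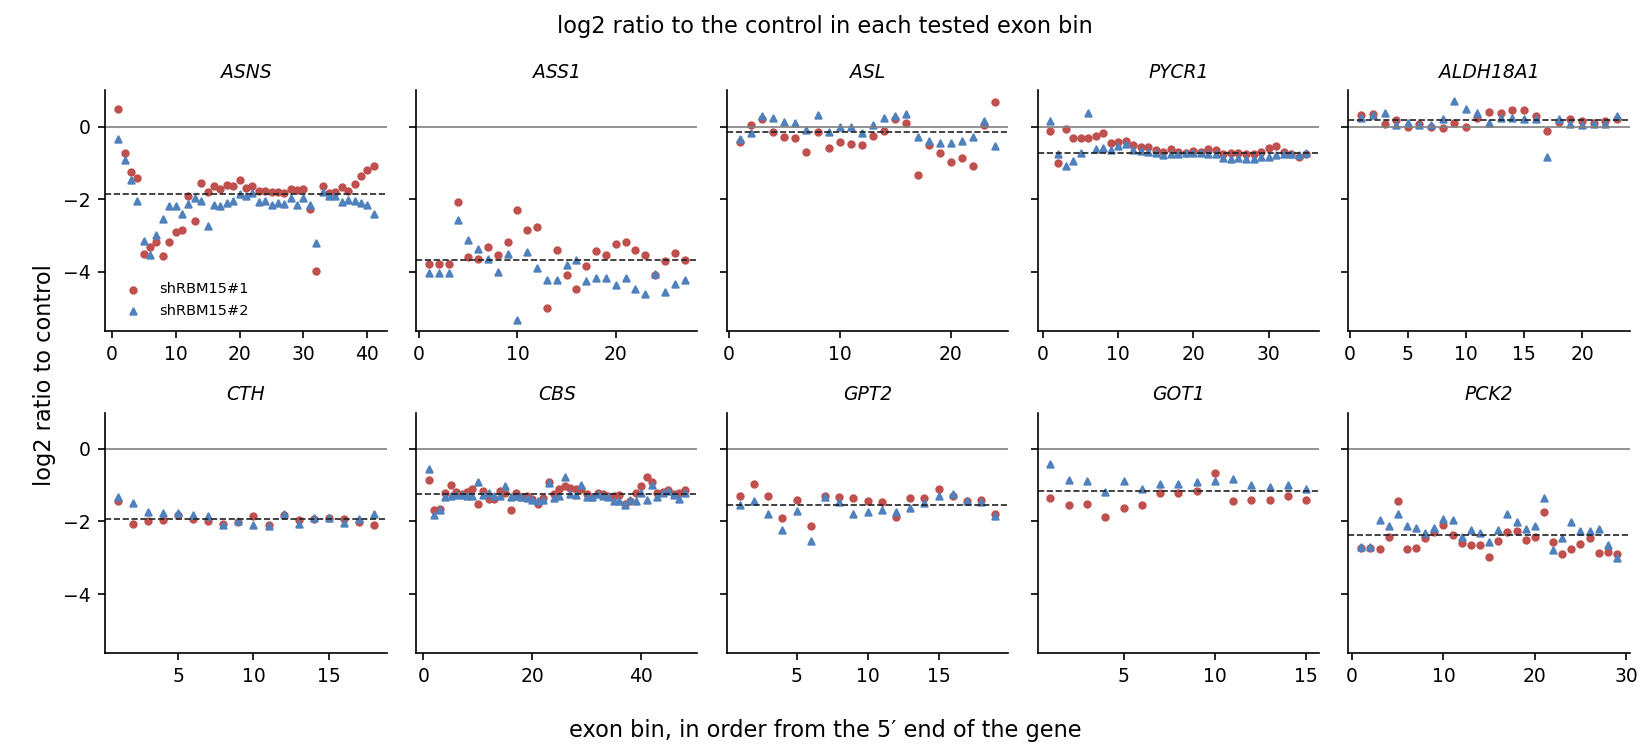
log2 ratio to the control in each tested exon bin of the 10 genes, in order from the 5′ end, for shRBM15#1 (circles) and shRBM15#2 (triangles). The grey line marks 0 and the dashed line the log2 fold change of the whole gene. Most bins lie along the dashed line, and the first bins of ASNS depart from it, upward at the very 5′ end and downward in the following bins. Of the ASNS bins, only bin 043 had an unadjusted p under 0.05 (edgeR).

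For exon use the study's limits were a fold of more than 1.2 and p under 0.05 before adjustment. At these limits 1 of the 279 bins passed, against 1.45% of the 234192 bins tested over all genes. At an adjusted p under 0.05, 0 of the 279 passed (edgeR), against 0.0205% of all bins. The bin that passed was the fourth from the 5′ end of ASNS, a 31-base untranslated stretch (bin 043, chr7:97501749-97501779). It had 12 counts in the control, 15 in shRBM15#1 and 10 in shRBM15#2, so it did not follow the fall of the gene. Its use relative to the rest of ASNS was higher by 1.95 ± 0.86 on the log2 scale with an unadjusted p of 0.028 and an edgeR adjusted p of 1.0 over all bins. The next bin, 042, had 61, 33 and 34 counts and a relative change of 1.02 ± 0.57, with an unadjusted p of 0.079.

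The 5 bins at the extreme 5′ end of ASNS, chosen after their values were seen, together had 76, 57 and 47 counts. Their log2 ratio to the control was -0.27 in shRBM15#1 and -0.77 in shRBM15#2, compared with -1.72 and -2.03 over the 20 coding bins. The 8 bins of alternative first exons just downstream (chr7:97500993-97501477) had 383 counts in the control, 46 in shRBM15#1 and 73 in shRBM15#2. Their log2 ratio of -2.91 and -2.47 was lower than that of the coding bins, a difference that was not tested for the group. In the edgeR fit no bin of this group passed the study's limits, and the smallest unadjusted p was 0.1, in bin 038. A read counts in every bin it touches, so pooled counts of such short neighbouring bins can hold the same read more than 1 time. Bin 040, which lies between both groups and had 388, 131 and 99 counts, stayed with the gene at -1.42 and -2.05. These are small parts of the gene, since bin 043 held 0.0664% of ASNS counts in the control, 0.297% in shRBM15#1 and 0.216% in shRBM15#2. The bins 042 to 046 lie upstream of the start in the promoter table, whose window matched the GRCh37 genome once with its start at position 97501720, and the TGATGAAA motif shown above fell at 97501781 to 97501788, within bins 044 and 045. The RNA-seq carried no strand, and a later annotation places the long noncoding gene ENSG00000284707 on the same strand over 28 of the 46 ASNS bins, coding bins and bins 040 to 043 among them. Reads of that gene and of ASNS cannot be told apart in those bins or in the ASNS total.

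The model chosen decided which bins passed, as a DEXSeq-type model in DESeq2 called 6 bins, 5 in ASNS and 1 in ASS1, with adjusted p-values of 0.23 or higher, where 2.21% of all bins passed. With every bin of at least 1 count tested, 11 passed, of which 7 were PCK2 bins with 0 to 8 counts in any library, and 1.77% of all bins passed. With at least 300 counts per bin, 0 passed, against 0.88% of all bins.

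The RIP-seq was read for sites in these genes. The authors' list of 1515 sites, which keeps only sites past their filter, held a site in 1 of the 10 genes, GPT2, and in 4 of the 32 further enzymes, among them OAT, GOT2 and AHCY. Of all tested genes with a symbol, 3.76% had a site, and of those with 1000 or more counts, 8.54% did. Because the list is filtered, a gene without a site was not shown to lack binding, and library depth is unknown. Over the listed sites, the library labelled normal immunoglobulin replicate 2 had more reads than the library labelled RBM15 antibody replicate 1 at all 1515 sites. With either label, replicate 1 had fewer reads than replicate 2 at every listed site, 28387 and 28845 in all against 610915 and 807871. The authors' comparison placed both replicate 1 libraries on the same side, which differs from the labels. Whether the counts follow the depth of the libraries or an exchange of labels was not tested, and they are given per library without a comparison.

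The GPT2 site spans 533 bases (chr16:46949347-46949879, plus strand, GRCh37) in an annotated intron, 661 bases before the next coding bin. It had 17 reads in the library labelled normal immunoglobulin replicate 1 and 511 in replicate 2, and 8 reads in the library labelled RBM15 antibody replicate 1 and 694 in replicate 2. Over all 1515 sites the medians of the same libraries were 8, 198, 8 and 262 reads, so the GPT2 site lay above the median in 3 of them and level with it in the other. The RNA was made almost wholly of A and C, which made up 89.1% of the site, compared with a median of 54.0% over the 1287 sites with a strand, of which 4 had a higher share. The middle 300 bases are shown because this composition is the site's most visible feature, with every ACACAC in capitals.
GPT2 site, chr16:46949463-46949762, plus strand: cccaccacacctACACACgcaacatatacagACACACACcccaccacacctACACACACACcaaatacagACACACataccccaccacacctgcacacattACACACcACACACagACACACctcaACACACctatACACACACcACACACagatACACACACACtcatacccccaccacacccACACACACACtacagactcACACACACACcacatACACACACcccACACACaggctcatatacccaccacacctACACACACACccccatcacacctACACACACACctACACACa
ACACAC was present in the middle 300 bases of 28.0% of the 903 stranded sites that were long enough to be read. How uniquely reads align to such a repeat was not tested.

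In the RNA-seq, the site lies inside GPT2 bin 013 (chr16:46949210-46950539), an exon of a noncoding transcript that includes the last 1330 bases of this intron. The bin had 85 counts in the control, 21 in shRBM15#1 and 27 in shRBM15#2, a log2 ratio of -1.87 and -1.73, and fell together with the rest of the gene (relative change -0.26 ± 0.34, edgeR adjusted p = 1.0). The following coding bin, 014, had 366, 130 and 125 counts, a log2 ratio of -1.35 and -1.63, and a relative change of 0.06 ± 0.24. No change of use was thus detectable at this depth in the bin with the site or in the coding bin after it. Of the further enzymes, GOT2 had 10, 228, 6 and 260 reads in the same order of libraries at a site in its 3′ untranslated region, and its RNA was at 117% and 114% of control. OAT had 13, 697, 18 and 1037 reads, and AHCY had 2 sites.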

How the data were processed

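MEG-01 RNA-seq (1 control library, 2 knockdown lines) and RIP-seq (4 libraries) were analysed. Members and gene lists were chosen with earlier results of these data known. The RNA-seq files hold raw counts per exon bin that the authors deposited, made from unstranded reads aligned to GRCh37 with STAR. The lines naming no gene held 23.16%, 32.01% and 23.52% of all counts, which is not a share of reads, and were left out. Bin counts were summed per gene, so a read that spans several bins counts in each. The deposited exon-use table held the same counts in all 625148 bins, and its fold changes and p-values, like those of the RIP-seq list, were not used. For the RIP-seq the authors aligned reads to hg19 (GRCh37), called peaks on all samples and deposited raw counts of 4 libraries for the peaks past their DESeq test. Symbols were found by identifier for 54481 of 62238 genes.

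Genes with 30 or more counts over the 3 libraries were tested in edgeR 4.0.16 (R 4.3.3; TMM, glmQLFTest; knockdown against control), and bins with diffSpliceDGE. P-values rest on the spread between 2 lines, each of 1 hairpin. The edgeR fit draws the spread of each gene strongly toward that of all genes (prior degrees of freedom 7.778). SE is the log2 fold change divided by the root of F, and intervals are 95%. Alternatives were size factors, other count filters, DESeq2 1.42.0, the highest bin per gene, and leaving out each line, which leaves 1 library on each side and gives a fold change with no test. Named were all 10 genes, of the 32 further enzymes those called at an adjusted p under 0.05 or closest to a member as paralog or partner, and bins past the study's limits. The fits were tested on simulated data. Annotation was GENCODE lifted to GRCh37. Values of some listed genes are not reported here.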

Additional observations from a re-analysis of the deposited data

How the results depend on the processing

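The 4 genes called at an adjusted p under 0.01 stood beside 86 of all 24887 genes called in either direction. They became 7 with no filter on low counts (801 of all 53542). With a summed count of at least 300 or the highest bin of each gene they became 0, as did the calls over all genes. They were 5 with size factors (191 of all 24887) and 6 with DESeq2 (525 of all 24887). At an adjusted p under 0.05 they were 6 (432 of all 24887). Without the filter the all-gene median moved to 0.435 on the log2 scale, against 0.017, so those values are relative to a shifted centre. Of the 32 further enzymes, the 0 called became 2 with no filter and 2 with DESeq2, and 1 at an adjusted p under 0.05. The 1 bin became 0 with at least 300 counts, 11 with every bin of at least 1 count, 6 in the DEXSeq-type model and 0 at an adjusted p under 0.05. The cause of these differences was not tested. Among the 10 genes' log2 fold changes, the only one that turned was ASL, 0.06 with the highest bin against -0.16. No paired analysis was possible because there is 1 control library and its label shares no pairing with the knockdown lines. Leaving out either line kept the sign of all 10, with a median of -1.46 and -1.45, and gave no counts of calls. At the few counts of the ASNS 5′ bins, only large changes of use could be detected.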
